A study of Mus musculus with 3 samples.

Results

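The 4 genes of the AMPA receptor subunits and the 6 genes of their auxiliary TARP subunits (transmembrane AMPA receptor regulatory proteins) are 10 of the 25562 genes in the files, taken by symbol. They were followed in cultured neurons of the medial ganglionic eminence (MGE), where many future cortical interneurons are born. Wild-type cells of the C57Bl/6 background were taken at embryonic day 14 and cultured for 10 days. At all 3 times the cells had been silenced overnight from day 9 with TTX, which blocks sodium channels, and AP-5, which blocks NMDA receptors. On day 10 the membrane was depolarized by 55 mM extracellular KCl for 0 h (silenced and unstimulated), 1 h or 6 h. One library of ribosomal-RNA-depleted total RNA stands for each time, so that introns were read as well as exons, and there are no replicates. No test between times could be made. The labels do not say whether the libraries came from separate preparations.

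AMPA receptors carry most of the fast excitatory current between neurons. Each receptor is a tetramer of the subunits GluA1 to GluA4, encoded by Gria1, Gria2, Gria3 and Gria4, and its passage to the synapse and its gating depend on small membrane proteins, the TARPs, which come from genes of the Cacng family. Cacng2, Cacng3, Cacng4 and Cacng8 encode the type I TARPs, of which the Cacng2 product, stargazin, is the best known, and Cacng5 and Cacng7 encode the type II TARPs. The GluA2 subunit, once its RNA is edited at the pore, makes a receptor nearly impermeable to calcium, and many inhibitory interneurons are known for AMPA receptors poor in it.

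Each Gria gene holds a pair of alternative exons called flip and flop. A mature AMPA receptor RNA carries either of them, both code for the end of the ligand-binding domain, and the choice is known to set how fast the receptor desensitizes. The deposited Gria2 model holds both, as exons 14 and 15, which were identified by length, by the 801 bp between them and by the codons that tell the forms apart. They are shown because the reads of Gria2 allow the forms to be counted. Both are on chromosome 3, minus strand, at chr3:80691320-80691434 (flop, exon 14) and chr3:80690404-80690518 (flip, exon 15) of GRCm38, from GENCODE transcripts. Capitals mark the 36 bases at which the exons, of equal length, differ.
Gria2 flop: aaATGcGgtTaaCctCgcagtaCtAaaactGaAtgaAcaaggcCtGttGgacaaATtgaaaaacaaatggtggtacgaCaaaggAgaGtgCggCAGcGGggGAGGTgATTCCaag
Gria2 flip: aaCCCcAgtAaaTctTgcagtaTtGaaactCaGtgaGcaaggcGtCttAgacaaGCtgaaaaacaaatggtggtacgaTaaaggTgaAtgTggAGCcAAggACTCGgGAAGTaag

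Uniquely mapped reads numbered 8996897 (0 h), 8549377 (1 h) and 8579378 (6 h). Among them were 2189394, 2457167 and 2480579 sense exonic and 2123187, 1789710 and 2095060 sense intronic reads. Exonic reads made up 50.8%, 57.9% and 54.2% of exonic plus intronic reads, so the balance between exons and introns of the whole library moved with time. Each mapped position held 2.45, 2.6 and 2.33 reads on average, and the part of PCR copies in these was not tested. The interneuron markers stood at 5022, 4854 and 6466 reads per 1000000 exonic reads (RPM) summed over 12 genes, none of them at 0. Markers of excitatory cortical neurons summed to 5.35, 3.98 and 2.95 RPM over 8 genes, 4 of them at 0 in each library. The markers of the labelled cell type were thus present and those of excitatory neurons near 0. Astrocyte and radial glia markers were at 2268, 2351 and 2487 RPM over 9 genes, and oligodendrocyte lineage markers were at 142, 141 and 176 RPM over 8 genes. Dividing cell markers reached 111, 114 and 105 RPM over 4 genes. The summed level was at most 12 RPM for 5 endothelial and mural genes and at most 0.446 RPM for 5 microglia genes. What these cells contributed to the levels of the receptor genes was not tested.

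Levels are RPM per kb of exon, or reads per 1000000 intronic reads per kb of intron, after scaling the library sizes by the trimmed mean of M values (TMM). Ratios are the later library over the earlier one, with an exact 95% interval that covers counting error only. A gene was called higher with a ratio of 1.5 or more, and lower with the inverse of 1.5 or less, provided that the interval excluded 1 and that 1 of the 2 libraries had 20 reads or more. All 10 genes had at least 20 exonic reads in a library and passed that minimum in every comparison, with exonic and with intronic reads.

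Between 0 h and 6 h of depolarization the composition of this set changed in a few members. Cacng5 was 9-fold higher at 6 h than at 0 h in exonic reads, Cacng8 was lower at 1 h and at 6 h, and the introns of Gria2 were 1.95-fold higher at 6 h. Gria1, the most abundant member, had a ratio of 0.691 at 6 h over 0 h, and Gria2 had 0.556, 0.648 and 0.908 reads for each Gria1 read at 0, 1 and 6 h. In a bulk culture fewer cells of a type and less RNA per cell cannot be told apart.

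By reads per kb of exon, Gria1, Gria2 and Gria4 were more abundant than any TARP gene in each library, and Gria3 was at the level of the TARP genes. At 0 h, Gria1 led with 294 RPM per kb of exon (interval 284 to 304), followed by Gria2 at 114 (109 to 119), Gria4 at 68.6 (64 to 73.5) and Cacng4 at 43.1 (34.9 to 52.7). The intervals of these first 3 genes did not reach the next gene in the order. Cacng4, Cacng8 (30.5), Gria3 (23.9), Cacng7 (20.8) and Cacng3 (16.9) followed closely, and no gene among them had an interval clear of its neighbour's. Cacng2 at 6.32 and Cacng5 at 2.79 RPM per kb closed the order, clear of Cacng3 but not of each other. At 6 h the first 4 places were as at 0 h, and Cacng5 stood next after Cacng7 with 25.1 RPM per kb (interval 21.9 to 28.7), not separable from its neighbours Cacng7 (26.1) and Gria3 (21.8).

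**Figure D1:**
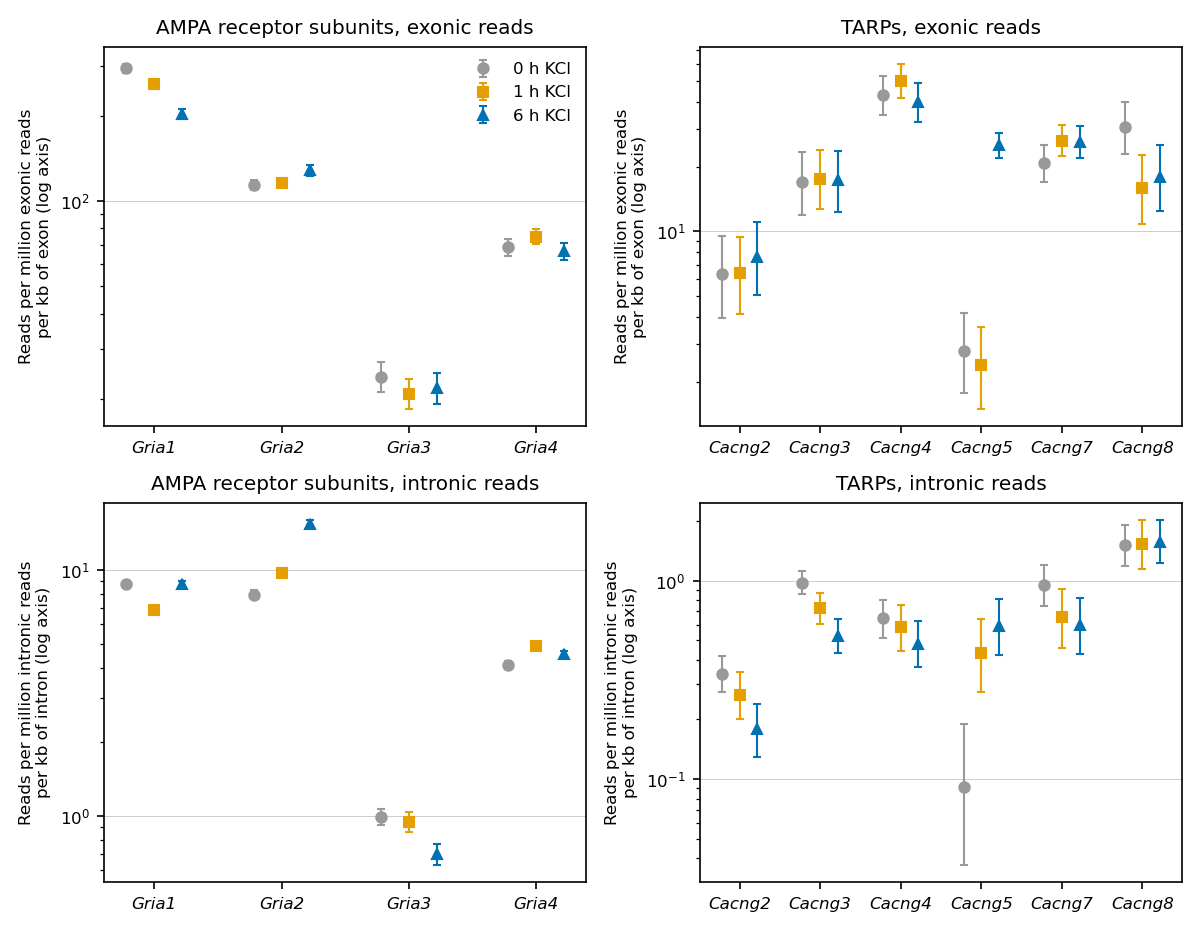
Levels of the 4 AMPA receptor subunit genes and the 6 TARP genes at 0, 1 and 6 h of KCl, as RPM per kb of exon (top) or of intron (bottom) on log axes, with 1 library per time. Bars are exact 95% Poisson intervals for counting error; Cacng5 stands at 2.79, 2.38 and 25.1 RPM per kb of exon, and Gria1 at 294, 258 and 203.

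Because the gene models differ, this order is approximate. The deposited models of Cacng3, Cacng4 and Cacng8 hold no 3′ untranslated region, and Cacng7 has a mappability of 0.337, so that few of its exonic positions could be read uniquely. In coding bases alone, Cacng7 stood at 36.1, 48.1 and 40.3 RPM per kb at 0, 1 and 6 h, and in the authors' coverage, which corrects for mappability, it had 5.39, 8.06 and 7.52 read bases per base, above Cacng4 with 3.99, 5.41 and 4.1. At 6 h this also put Cacng7 above Gria4, which had 6.37, 8.18 and 6.83. The other 9 genes had a mappability of at least 0.846. All 10 genes lie on the mouse genome build mm9. Gria1 (gene ID 14799) is at chr11:56825458-57143746, Gria2 (14800) at chr3:80488858-80606713, Gria3 (53623) at chrX:38754691-39031777 and Gria4 (14802) at chr9:4417896-4796142. The type I TARP genes are at chr15:77825386-77949710 (Cacng2, 12300), chr7:129815288-129912360 (Cacng3, 54376), chr11:107596094-107655778 (Cacng4, 54377) and chr7:3394459-3415366 (Cacng8, 81905). The type II TARP genes are at chr11:107735919-107772676 (Cacng5, 140723) and chr7:3333055-3367810 (Cacng7, 81904).

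Across the 10 genes few exonic calls were made. At 1 h against 0 h, 0 of the 10 genes were called higher and 1, Cacng8, lower, where 3.76% of the 10093 genes tested were higher and 5.3% lower. At 6 h against 0 h, 1 gene was higher (Cacng5) and 1 lower (Cacng8), against 11.6% and 13.2% of 10095 genes. At 6 h against 1 h, 1 gene was higher (Cacng5) and 0 were lower, against 9.88% and 10.9% of 10137 genes. The median log2 ratio of the 4 Gria genes was -0.08, -0.09 and -0.06 in these comparisons and that of the 6 Cacng genes 0.04, 0.15 and 0.08, beside 0.01, 0.00 and 0.01 over all genes tested. Counts of 0 or 1 in 10 genes are near the shares of all genes.

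In intronic reads, 1 of the 10 genes was called higher (Cacng5) and 0 lower at 1 h against 0 h, beside 15.6% and 12.8% of 8143 genes tested. At 6 h against 0 h, 2 were higher (Cacng5 and Gria2) and 3 lower (Cacng2, Cacng3 and Cacng7), beside 13.2% and 10.9% of 8236 genes. At 6 h against 1 h, 1 was higher (Gria2) and 0 were lower, beside 13.9% and 12.2% of 7734 genes. The median intronic log2 ratio at 6 h over 0 h was -0.54 for the 6 Cacng genes and 0.07 for the 4 Gria genes, beside 0.05 over all genes tested. Intronic counts were scaled among introns alone. Scaled with exonic totals instead, the median of all genes shifted to -0.67 at 1 h over 0 h, and 7 of the 10 genes were then called lower at 1 h. At a 2-fold threshold the call of Cacng5 was the only 1 of the 5 at 6 h over 0 h that was kept.

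**Figure D2:**
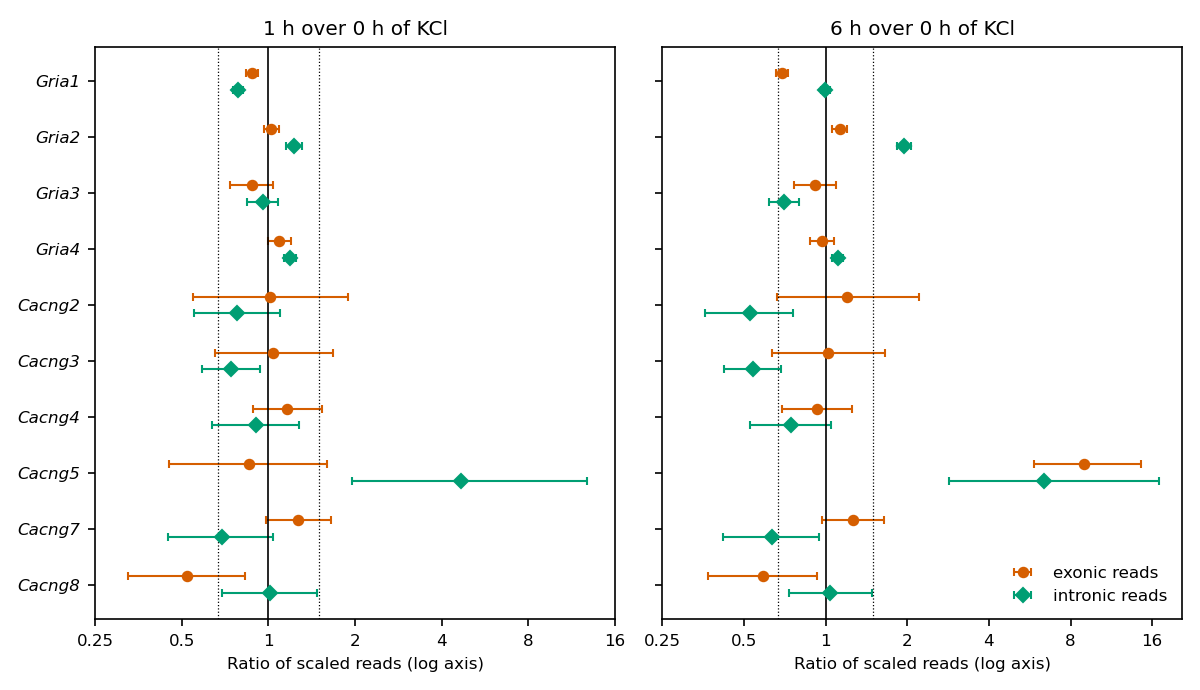
Ratios of scaled exonic and intronic reads at 1 h over 0 h (left) and 6 h over 0 h (right) for the 10 genes, on log axes, with exact 95% intervals for counting error from 1 library per time. The solid line is a ratio of 1 and the dotted lines are the 1.5-fold thresholds; Cacng5 lies to the right in both kinds of reads at 6 h, and Gria2 in introns only.

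Gria1, which encodes the GluA1 subunit central to activity-dependent insertion of receptors, had 3556, 3496 and 2600 exonic reads at 0, 1 and 6 h. Its ratio at 6 h over 0 h was 0.691 (interval 0.657 to 0.728), with the interval below 1 but the ratio short of the fold threshold. The 6 h library was the lowest of the 3 under each scaling tried. Scaled by total exonic reads, the ratio was 0.645 and Gria1 was called lower, and scaled by mapped reads it was 0.767. The 15 exons of Gria1 with at least 20 reads, of 16, had ratios from 0.504 to 0.875 at 6 h over 0 h, and in 10 the interval was below 1. At 1 h over 0 h the gene's ratio was 0.877 (0.837 to 0.919), a direction that turned to 1.03 when libraries were scaled by mapped reads and to 1.04 in the authors' coverage.

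The introns of Gria1 followed another course. They held 6321, 3644 and 5633 reads, so that the 1 h library was the lowest. The intronic ratio was 0.785 (interval 0.753 to 0.817) at 1 h and 0.999 (0.964 to 1.04) at 6 h over 0 h. Each gene was divided by length into 3 equal parts, and each intron was counted whole in the part that held its midpoint. Intron 2 of Gria1, of 170501 bp, reaches beyond the 5′ part and gave 3286 of the 3305 reads of that part at 0 h. At 1 h over 0 h the introns in the 5′ part of the 318 kb gene had a ratio of 0.639 (0.601 to 0.679) and those in the 3′ part 0.96 (0.904 to 1.02). For comparison, the median ratio at 1 h over all genes of at least 100 kb was 0.833 in the 5′ part (1334 genes, quartiles 0.649 and 1.08) and 0.972 in the 3′ part (1420 genes). Gria1 thus lay below the lower quartile of long genes in its 5′ part and near their median in its 3′ part.

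Gria2, the gene for the subunit that sets calcium permeability, had 1976, 2265 and 2360 exonic reads. Its exonic ratio was 1.02 (interval 0.962 to 1.09) at 1 h and 1.13 (1.06 to 1.2) at 6 h over 0 h, a difference well short of the fold threshold. In introns it was the only gene of the 4 subunits that was called. Its 2006, 1812 and 3480 intronic reads gave a ratio of 1.95 (1.84 to 2.06) at 6 h over 0 h and of 1.58 (1.49 to 1.68) at 6 h over 1 h, and both comparisons were called higher. Each of the 13 introns with at least 20 reads had an interval above 1 at 6 h over 0 h, with a median ratio of 2.03. The rise was present in the introns of each part of the 118 kb gene. It was 1.76 (1.61 to 1.93) in the 5′ part, 2 (1.75 to 2.28) in the middle and 2.09 (1.92 to 2.28) in the 3′ part. Intron 2, of 60446 bp, reaches beyond the 5′ part and gave 788 of the 793 reads of that part at 0 h. At 1 h over 0 h the intronic ratio of Gria2 was 1.23 (1.15 to 1.31), but 0.951 when scaled by mapped reads and 0.806 when scaled with exonic totals.

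The exonic share of Gria2 reads was 49.6%, 55.6% and 40.4% at 0, 1 and 6 h, against 36%, 49% and 31.6% for Gria1. In both genes the share was highest at 1 h, as it was over all genes.

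The ratio of Gria2 to Gria1 within a library, which needs no scaling between libraries, was lowest at 0 h and highest at 6 h. Gria2 had 0.556 exonic reads for each Gria1 read at 0 h (interval 0.526 to 0.587), 0.648 at 1 h (0.614 to 0.683) and 0.908 at 6 h (0.858 to 0.96). Per kb of exon these were 0.387, 0.451 and 0.633. The intervals of the 3 libraries, which cover counting error and no spread between libraries, did not overlap. In introns the ratio was 0.317 (0.302 to 0.334), 0.497 (0.47 to 0.526) and 0.618 (0.592 to 0.645), again with no overlap. Expressed as shares of the summed exonic level per kb of the 4 subunit genes, Gria1 held 58.8%, 54.9% and 48.4% and Gria2 22.8%, 24.8% and 30.6%. Gria4 held 13.7%, 15.9% and 15.8%, and Gria3 4.77%, 4.45% and 5.19%. Gria1 was the most abundant subunit RNA in each library.

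**Figure D3:**
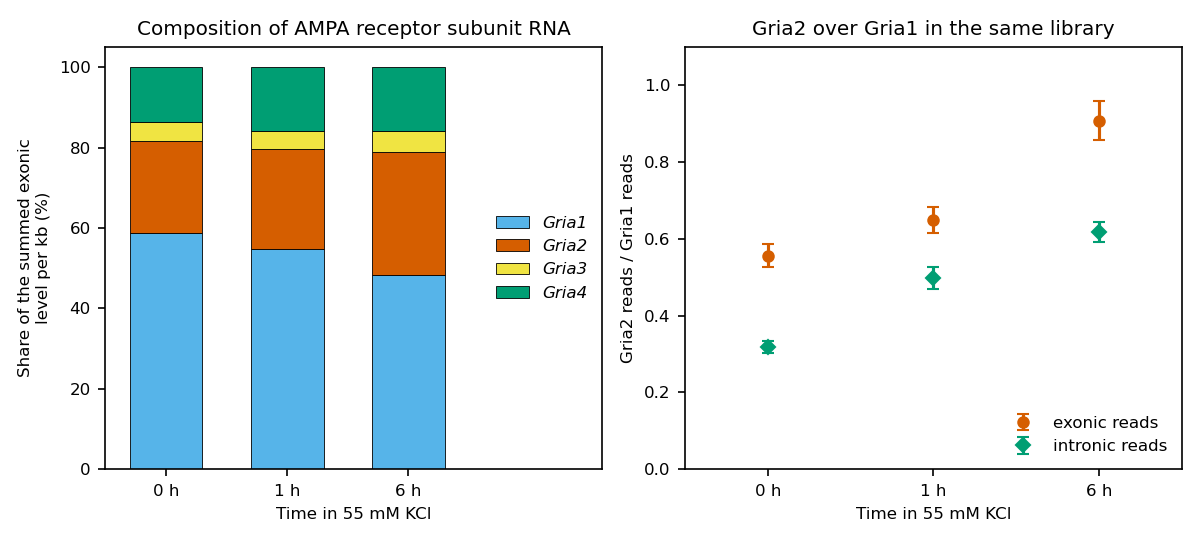
Left, the share of each AMPA receptor subunit gene in their summed exonic level per kb at 0, 1 and 6 h of KCl, where Gria1 is at 58.8%, 54.9% and 48.4% and Gria2 at 22.8%, 24.8% and 30.6%. Right, Gria2 reads over Gria1 reads within each library, exonic and intronic, with exact 95% intervals for counting error; both ratios are lowest at 0 h and highest at 6 h.

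The flop and flip exons of Gria2, shown above with 68.7% of their bases the same, had a mappability of only 0.397 and 0.367, so that many reads of 35 bp inside them could not be placed uniquely. Exon 14 (flop) had 14, 20 and 25 reads at 0, 1 and 6 h and exon 15 (flip) 3, 4 and 8. Reads across the splice junctions with exons 13 and 16 numbered 18, 8 and 8 for flop and 6, 4 and 8 for flip. None of the junction reads joined exon 14 to exon 15, with 0 in each library. The flop share of junction reads was 75% (interval 53.3 to 90.2) at 0 h, 66.7% (34.9 to 90.1) at 1 h and 50% (24.7 to 75.3) at 6 h. These intervals overlap widely, so a difference between times was not detectable at this depth. Over the 3 libraries together flop made up 65.4% (50.9 to 78) of 52 junction reads and 79.7% (68.8 to 88.2) of 74 reads inside the exons. The deposited models of the other subunits hold 1 of the forms each, flop in Gria1 and flip in Gria3 and Gria4, so the forms of those genes could not be compared.

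Gria4, which encodes the fast-gating GluA4 subunit known from parvalbumin interneurons, had 823, 1006 and 842 exonic reads. Its exonic ratios were 1.09 (interval 0.993 to 1.2) at 1 h and 0.967 (0.878 to 1.07) at 6 h over 0 h, both including 1. Intronic reads, 3514, 3074 and 3466, gave ratios of 1.19 (1.13 to 1.25) and 1.11 (1.06 to 1.16). When scaled with exonic totals these were 0.78 and 0.933, so the direction turned with the scaling. The middle part of the gene, which is the 126948 bp intron 4, had 780, 390 and 700 reads and a ratio of 0.681 (0.601 to 0.77) at 1 h over 0 h, below the 0.691 that marks the lower quartile of long genes there.

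Gria3, for the GluA3 subunit, was the least abundant of the 4, with 267, 262 and 258 exonic reads and ratios of 0.875 (interval 0.735 to 1.04) and 0.914 (0.767 to 1.09) at 1 h and 6 h over 0 h. Its intronic reads were 620, 435 and 389. The intronic ratio was 0.955 (0.843 to 1.08) at 1 h and 0.704 (0.618 to 0.8) at 6 h over 0 h, the second with an interval below 1 but short of the fold threshold. It passed the threshold and was called lower under the other scalings, at 0.636 by total intronic reads, 0.593 with exonic totals and 0.658 by mapped reads. At 1 h its 5′ part had a ratio of 0.607 (0.447 to 0.817) and its 3′ part 1.16 (0.991 to 1.37).

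Reads were not spread evenly over the introns of the Gria genes. In Gria1, introns 13, 14 and 15 held 23.6, 22.5 and 18 RPM per kb at 0 h, whereas introns 1 to 12 held between 1.83 and 8.38. Intron 13 alone, of 20273 bp and 6.48% of the intron length, had 1098, 794 and 961 reads, or 17.4%, 21.8% and 17.1% of the intronic reads of the gene. In Gria3 intron 13 held 162, 130 and 96 reads in 15247 bp, 5.96, 7.18 and 5.52 times the density of its other introns. In Gria4 intron 14, of 28860 bp, had 1125, 1271 and 1215 reads, 5.61, 8.4 and 6.43 times the density of the other introns. These introns lie directly before the flip or flop exon of each deposited model, and they were singled out after their values were seen.

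The intronic course of Gria4 rested partly on that intron. Intron 14 had a ratio of 1.54 (interval 1.42 to 1.67) at 1 h over 0 h, against 1.03 (0.966 to 1.09) for the other 15 introns together. In Gria1 the ratio was also higher in intron 13, at 0.984 (0.897 to 1.08), than in the others, at 0.743 (0.709 to 0.778). There the others fell and intron 13 did not. In Gria3 the 2 values were 1.09 (0.86 to 1.38) and 0.906 (0.782 to 1.05), with intervals that overlap. In the GENCODE annotation of the later build GRCm38, an intron of exactly the same length between exons of the same lengths contains 0 other annotated exons in Gria1, 2 in Gria3 and 1 in Gria4, and 0 annotated transcripts end inside it in any of the 3 genes. The 1 exon in Gria4 is flop, and flop is among the 2 in Gria3. Flop comes before flip in both genes, and their deposited models hold flip alone. Reads of the flop exon there count as intronic, and their part in these densities was not tested. The files give reads per intron, so the place of the reads within an intron was not analysed here. In the deposited Gria2 model the exon before flop is 1041 bp and the intron between them 57 bp, so the same comparison was not made for that gene.

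**Figure D4:**
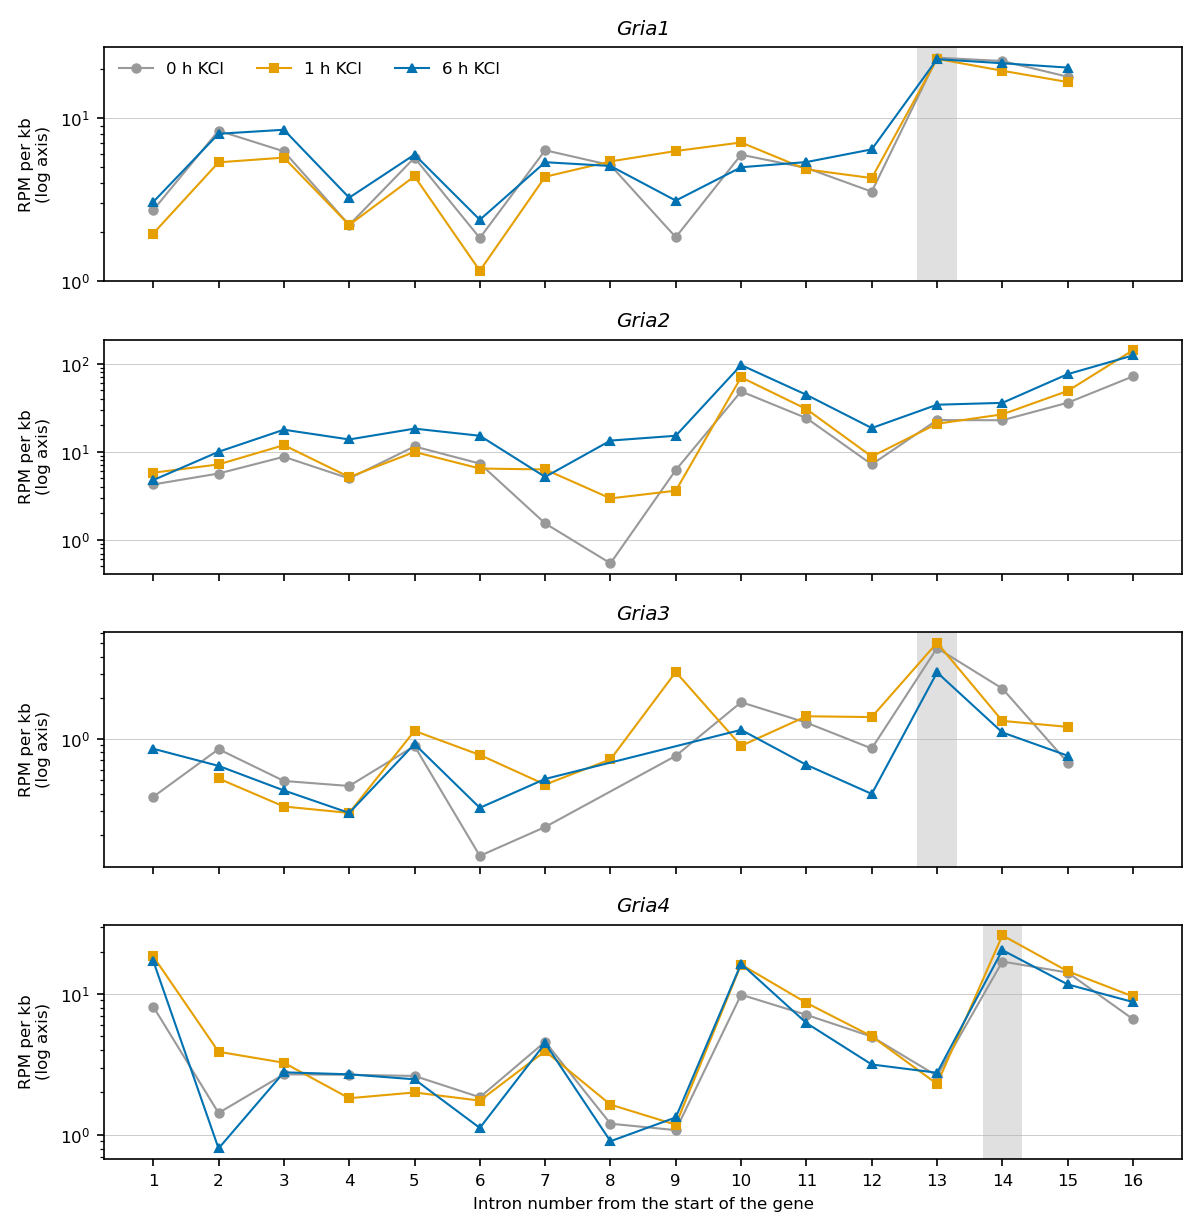
Intronic level of the 4 AMPA receptor subunit genes by intron number, as RPM per kb of intron on log axes, at 0, 1 and 6 h of KCl (1 library each; introns with 0 reads are not drawn). The grey bands mark intron 13 of Gria1, intron 13 of Gria3 and intron 14 of Gria4, at 23.6, 4.62 and 17 RPM per kb at 0 h; the 6 h points of Gria2 lie above its 0 h points in each of the 16 introns.

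Among the TARP genes other than Cacng5 and Cacng8, calls were made in introns only. Cacng2, the stargazin gene, had 22, 25 and 28 exonic reads, and its exonic ratio at 6 h over 0 h was 1.2 (interval 0.664 to 2.21). Its intronic reads, 96, 55 and 45, fell to 0.526 times the 0 h level at 6 h (0.36 to 0.757). Cacng3, a TARP gene of cortical neurons, had 36, 42 and 39 exonic reads, with an exonic ratio of 1.02 (0.634 to 1.66) at 6 h over 0 h. Its intronic reads, 216, 118 and 104, fell to 0.54 times the 0 h level at 6 h (0.423 to 0.685). At 1 h the intronic ratio of Cacng3 was 0.744 (0.589 to 0.935), short of the fold threshold. For both genes, then, no exonic difference was detectable at this depth, and intronic reads were highest at 0 h. Cacng4, first of the TARP genes per kb of exon but below Cacng7 in the authors' coverage, had 95, 124 and 93 exonic reads. It had 87, 58 and 58 intronic reads. Its intronic ratio of 0.748 (0.527 to 1.05) at 6 h over 0 h included 1. The 500 bp after the end of the Cacng4 model held 33, 34 and 41 reads, so that transcribed bases lay outside the model.

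Cacng8, which encodes γ8, a type I TARP known as abundant in the hippocampus, fell in its exonic reads. It had 53, 31 and 33 exonic reads at 0, 1 and 6 h and was 0.522 times its 0 h level at 1 h (interval 0.324 to 0.828) and 0.589 times at 6 h (0.369 to 0.926). The 1 h and 6 h libraries were both below the 0 h library and close to each other, with a ratio of 1.13 (0.67 to 1.91) at 6 h over 1 h. The 6 h call was lost with a 99% interval and when libraries were scaled by mapped reads (ratio 0.653), and neither call passed a 2-fold threshold. Exon 1 had 35, 22 and 13 reads and a ratio of 0.351 (0.171 to 0.68) at 6 h over 0 h. Exon 2 had 1, 0 and 3 reads, exon 3 had 9, 4 and 6, and exon 4 had 5, 5 and 8, with ratios of 2.84, 0.63 and 1.51 at 6 h over 0 h whose intervals all included 1. The lower count at 6 h thus lay in exon 1, and the other exons together held no fewer reads than at 0 h. Intronic reads of Cacng8 numbered 70, 52 and 65, with ratios of 1.01 (0.692 to 1.47) and 1.04 (0.731 to 1.48) at 1 h and 6 h over 0 h.

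Cacng7, the second type II TARP gene, had 103, 147 and 137 exonic reads, with ratios of 1.27 (interval 0.983 to 1.65) at 1 h and 1.26 (0.967 to 1.64) at 6 h over 0 h. Its intronic reads, 71, 36 and 40, fell at 6 h to 0.632 times the 0 h level (0.418 to 0.944), a call that was lost with a 99% interval. Prkcc, its neighbour 2.05 kb upstream on the same strand, had 48, 18 and 13 exonic reads and fell to 0.256 times (0.127 to 0.48) at 6 h.

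Cacng5, the type II TARP gene for the γ5 protein, had 23, 22 and 219 exonic reads at 0, 1 and 6 h. It was 9-fold higher at 6 h than at 0 h (interval 5.85 to 14.5) and 10.6-fold higher at 6 h than at 1 h (6.8 to 17.2), while its ratio at 1 h over 0 h was 0.853 (0.453 to 1.6). The 6 h library was high and the 0 h and 1 h libraries were low and close to each other. Of the genes tested, 99.7% had a lower ratio at 6 h over 0 h. Under the scaling alternatives the 6 h over 0 h ratio lay between 8.4 and 9.99. The summed interneuron markers were highest at 6 h as well. Of these 12 genes, 3 were called higher and 1 lower at 6 h over 0 h, beside 11.6% and 13.2% of all genes tested. Their median log2 ratio was 0.02, and the part of the markers in the Cacng5 result was not tested.

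At 6 h, 5 of the 6 exons of Cacng5 held reads, and at each time most exonic reads lay in the last. This exon, exon 6, which carries the 3′ untranslated region, had 19, 18 and 170 reads, and 4 of the 5 other exons also had more reads at 6 h than at 0 h. Exon 2 had 1, 3 and 9 reads, exon 3 had 0, 0 and 9, exon 4 had 0, 0 and 12, and exon 5 had 1, 1 and 10. Exon 1, of 63 bp, had 0 reads in each library. The coding part alone gave 5, 7 and 69 reads, or 2.69, 3.36 and 35.2 RPM per kb, and splice junctions gave 2, 0 and 9 reads. Antisense exonic reads numbered 1, 0 and 0.

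The introns of Cacng5 were already higher at 1 h, on few reads in which the part of PCR copies was not tested. They held 7, 24 and 40 reads at 0, 1 and 6 h, which made them 4.67-fold higher at 1 h (interval 1.95 to 12.8) and 6.41-fold higher at 6 h (2.84 to 17) than at 0 h. The ratio at 6 h over 1 h was 1.37 (0.808 to 2.38). Most of these reads lay in intron 1, of 26718 bp, with 4, 23 and 33 reads. The exonic share of its reads was 76.7% (interval 57.7 to 90.1), 47.8% (32.9 to 63.1) and 84.6% (79.6 to 88.7), lowest at 1 h. At 1 h the intronic level was therefore above that of 0 h while the exonic level was not detectably different, and at 6 h both were higher.

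**Figure D5:**
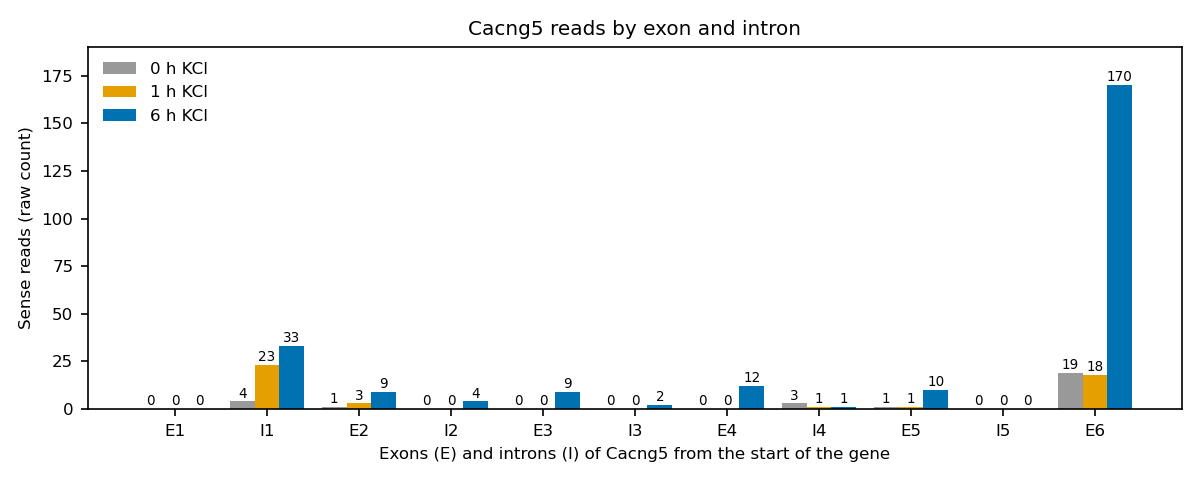
Raw sense reads in each exon and intron of Cacng5, in the order of the gene, at 0, 1 and 6 h of KCl (1 library each). Intron 1 held 4, 23 and 33 reads and the last exon 19, 18 and 170.

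The genomic neighbours of Cacng5 differed among themselves. Cacng4, the TARP gene 80.1 kb downstream, had 95, 124 and 93 exonic reads and a ratio of 0.926 (interval 0.688 to 1.25) at 6 h over 0 h. Prkca, which encodes a protein kinase C and lies 26.9 kb away on the other side and on the same strand, had 147, 149 and 387 reads and was 2.49-fold higher at 6 h (interval 2.05 to 3.03), with 0.904 (0.715 to 1.14) at 1 h. The 500 bp before the start of the Cacng5 model held 0, 1 and 0 reads. Among 1018 genes with a mean of at least 500 exonic reads, the 3 whose log2 ratios at 1 h and 6 h were nearest to those of Cacng5 over these 3 libraries were Slc38a2, an amino acid transporter, Hivep2, a zinc finger factor, and Slc2a3, a neuronal glucose transporter, at distances of 1.45, 1.5 and 1.65 log2 units. Their log2 ratios at 6 h over 0 h were 1.81, 1.69 and 1.55, against 3.14 for Cacng5, so none of these came near it.

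The share of TARP exonic reads that came from Cacng5 was 6.93% at 0 h (interval 4.44 to 10.2), 5.63% at 1 h (3.56 to 8.4) and 39.9% at 6 h (35.8 to 44.1), of 332, 391 and 549 reads in all. Per kb, its share of the summed TARP level was 2.32%, 2% and 18.7%. Cacng4 held the largest share per kb at each time, with 35.8%, 42.2% and 29.8%. The mappability of Cacng7 keeps these per kb shares approximate. In the authors' coverage, which corrects for mappability, Cacng7 stood above Cacng4 at each time.

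Beyond the members, 45 genes of the AMPA receptor pathway were listed, of which 40 reached the read minimum. At 1 h against 0 h 5 were higher and 2 lower, at 6 h against 0 h 7 were higher and 8 lower, and at 6 h against 1 h 4 were higher and 2 lower. Their median log2 ratios were -0.01, 0.13 and 0.02. For all genes tested, as given above, the shares were 3.76% higher and 5.3% lower at 1 h over 0 h. They were 11.6% and 13.2% at 6 h over 0 h, and 9.88% and 10.9% at 6 h over 1 h. The medians were 0.01, 0.00 and 0.01.

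Among auxiliary subunits other than TARPs, the Shisa genes, whose products (also called CKAMPs) modulate receptor desensitization and recovery, differed in direction at 6 h. Shisa9, the founding member, had 187, 179 and 354 reads and was 1.79-fold higher at 6 h than at 0 h (interval 1.5 to 2.15). Shisa6 had 230, 134 and 109 reads and was 0.52 times (0.417 to 0.646) its 0 h level at 1 h and 0.448 times (0.353 to 0.565) at 6 h, the lowest ratio among the tested genes of the list in both. Shisa7, with 103, 104 and 64 reads, was 0.588 times (0.423 to 0.81) at 6 h. The cornichon genes Cnih2 and Cnih3, whose products help AMPA receptors leave the endoplasmic reticulum, were called neither higher nor lower, with Cnih2 at 1.3 (1.15 to 1.48) at 6 h over 0 h. None of the 6 tested genes for assembly and biogenesis, among them Frrs1l and Cpt1c, was called in any comparison. Of all genes tested, between 3.76% and 13.2% were called in each direction, depending on the comparison.

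At 6 h over 0 h, 11.6% of all genes tested were higher and 13.2% lower. Of 9 genes for extracellular clustering and adhesion, 4 were higher and 1 lower at 6 h. The neuronal pentraxins, secreted proteins that gather AMPA receptors, were among them, with Nptx2 at 6.29-fold (interval 4.24 to 9.65), the highest among the tested genes of the list, and Nptx1 at 3.5-fold (1.71 to 7.89) on 10, 20 and 37 reads. Their membrane-bound relative Nptxr, with 359, 245 and 242 reads, was 0.609 times (0.515 to 0.718) its 0 h level at 1 h and 0.637 times (0.539 to 0.752) at 6 h. Lrrtm1, a synaptic adhesion gene, had 41, 100 and 123 reads and was 2.18-fold (1.5 to 3.21) and 2.84-fold (1.98 to 4.14) higher. Olfm3, which encodes a secreted olfactomedin protein, had 31, 58 and 68 reads and was 1.67-fold (1.06 to 2.67) and 2.07-fold (1.34 to 3.28) higher.

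Of the 12 tested genes for anchoring and trafficking, 2 were higher and 2 lower at 6 h. The shares of all genes tested were 11.6% and 13.2%. Dlg1, which encodes the GluA1-binding scaffold SAP97, was 2.05-fold higher (interval 1.64 to 2.58) and Sdcbp (syntenin) 1.98-fold higher (1.67 to 2.35), on 116, 142 and 252 reads and 202, 340 and 422 reads. Dlg3 (SAP102) was 0.595 times (0.499 to 0.709) and Grip2, an AMPA receptor anchoring scaffold, 0.538 times (0.378 to 0.759) the 0 h level. Arc, whose product drives AMPA receptor endocytosis, had 27, 595 and 40 reads, 19.7-fold higher at 1 h (13.4 to 30.1) and 1.4 (0.839 to 2.37) at 6 h over 0 h.

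Of the RNA editing genes, Adarb1, whose enzyme edits the pore codon of Gria2, had 276, 292 and 342 reads and a ratio of 1.17 (0.997 to 1.38) at 6 h, while Adarb2, a relative without known editing activity, was 0.646 times (0.545 to 0.766). Grid1, a glutamate delta receptor gene, was lower at 6 h, at 0.578 times (0.464 to 0.719). Cacng1 and Cacng6, calcium channel subunit genes of the same family that are not TARPs, had 0, 2 and 3 reads and 0, 0 and 0 reads, at or under the floor of 3 reads.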

How the data were processed

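Total RNA of 3 libraries (1 per time) was depleted of ribosomal RNA and sequenced with strand kept, per the labels' protocols. Read counts per gene, exon, intron and splice junction were deposited as raw numbers of 35 bp reads with a unique place in the genome or in joined RefSeq exons and no more than 3 mismatches, repeated reads kept, per the deposited counting logs. For the aligner, no name is given in the sources used here. The build was mm9, per the submitters' processing notes. The authors also deposited coverage per gene, scaled to 10000000 reads and, for exons, corrected for mappability, per the file headers and logs.

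From the counts, TMM factors (edgeR 4.0.16, R 4.3.3) were computed over all genes, for exonic and intronic reads apart. Ratios with exact Clopper-Pearson 95% intervals were computed for all genes with Python 3.11.15, numpy 2.4.6, pandas 2.3.3 and scipy 1.17.1, levels have exact Poisson intervals, and log2 ratios used a pseudocount of 0.5 reads. Counts of 3 or fewer were treated as the floor. These intervals cover counting error only, and repeated reads make them too narrow. With 1 library per time there was no test, and no replicate spread is known. The ratio step was tested on simulated data. Figures were drawn with matplotlib 3.10.9.

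Named were all 10 members, the pathway genes that met the call rule or had the highest or lowest ratio, and the 3 genes nearest to the member whose interval at 6 h over 0 h lay farthest from 1. Frrs1l, Cpt1c, Cnih2, Cnih3, Adarb1, Prkca, Prkcc, Cacng1 and Cacng6 were named outside that rule, after their values were seen. Of the pathway genes that met the rule, 1 is not reported here by name. The members and lists were chosen with earlier results of these data known. Of the pathway genes, Shisa6, Shisa7, Shisa8, Shisa9 and Frrs1l carry older symbols in the files and were matched by gene ID. The marker genes fixed for each cell type were summed. Sequences came from GENCODE transcripts on GRCm38, while deposited coordinates are mm9, and no coordinate was converted. Alternatives were total exonic, intronic or mapped reads and DESeq2 1.42.0 size factors for scaling, the authors' coverage, a 2-fold threshold, no read minimum, a 99% interval and, for single exons and introns, a minimum of 10 reads.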

Additional observations from a re-analysis of the deposited data

How the results depend on the processing

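Of the exonic calls among the 10 genes, 1 was made at 1 h over 0 h, against 2 when libraries were scaled by mapped reads and 0 at a 2-fold threshold. At 6 h over 0 h 2 were made, against 3 by total exonic reads. There was 1 when scaled by mapped reads, 1 at 2-fold and 1 with a 99% interval. Of the intronic calls, 1 was made at 1 h over 0 h, against 3 when scaled by total intronic reads, 8 with exonic TMM and totals, and 5 by mapped reads. At 6 h over 0 h 5 were made, against 1 at 2-fold, 4 with a 99% interval, 6 by total intronic reads, 7 with exonic TMM and totals and 6 by mapped reads, and at 6 h over 1 h 1 was made, against 3 with exonic TMM and totals, 2 by mapped reads and 0 at 2-fold. These scalings shift the median of all genes, which was 0.25 (log2) at 1 h over 0 h in exons by mapped reads and -0.67 in introns with exonic totals. Among the calls of all genes, 41.5% were higher at 1 h over 0 h in exons, against 86.6% by mapped reads and 82.5% in the authors' coverage. At 6 h over 0 h the share was 46.8%, against 33.8% by total exonic reads, 66.8% by mapped reads and 63% in coverage. At 6 h over 1 h it was 47.6%, against 34.7% by total exonic reads, 35.9% by mapped reads and 35.1% in coverage. In introns it was 55% at 1 h over 0 h, against 32.7% by total intronic reads, 7.94% with exonic totals and 17.4% by mapped reads. The intronic share was 54.9% at 6 h over 0 h, against 34.6%, 24.3% and 40.8%, and 53.3% at 6 h over 1 h, against 87.4% with exonic totals and 82.4% by mapped reads. A 2-fold threshold left 159 higher and 144 lower of 380 and 535 exonic calls at 1 h over 0 h, and 497 and 547 of 1172 and 1334 at 6 h over 0 h. At 6 h over 1 h it left 423 and 469 of 1002 and 1102, and in introns 609 and 504 at 1 h over 0 h, 434 and 460 of 1089 and 896 at 6 h over 0 h and 547 and 448 of 1076 and 941 at 6 h over 1 h. Mapped reads gave 1156 higher and 179 lower and coverage 1427 and 302 at 1 h over 0 h. Intronic calls at 1 h over 0 h were 1274 higher and 1042 lower, against 351 and 4071 with exonic totals. The Cacng5 ratio at 6 h over 0 h stayed between 8.4 and 9.99 in exons and between 5.4 and 6.41 in introns, and that of Gria2 introns between 1.64 and 1.95. DESeq2 size factors moved none of 30 exonic ratios by more than its interval, and the other scalings moved 4 to 8 of 30 exonic and 7 to 16 of 30 intronic ratios. No paired analysis was possible because each time has 1 library and no test was made, and leaving out a library leaves no comparison. Depth limits the TARP genes most, with 22 to 219 exonic reads each.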
